A study of Mus musculus with 7 samples.

Results

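Fatty acid oxidation, the pathway that breaks fatty acids down to acetyl-CoA, was examined as a group of 33 genes in germinal centre B cells that lack R-Ras2 and in wild-type (WT) cells. The genes were chosen by symbol, from those that activate fatty acids, carry them into mitochondria, oxidise them there and oxidise them in peroxisomes. Of the 33, 31 had a probe set named for that gene alone, out of 16136 genes tested and 21515 named on the array, and each of the 31 had 1 such probe set. Acsl1 and Acsl3 were not analysed here. All 31 were bright enough to be tested, by a limit on the mean over all arrays that does not use the groups (3.48 on the log2 scale, the 25th percentile of the named genes).

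In germinal centres, B cells activated by antigen divide rapidly and mutate their antibody genes. The series title ties R-Ras2, the RAS-like GTPase that Rras2 encodes, to the energy demand of this process. The labels give 4 WT and 3 RRas2-deficient samples, all biological replicates of B220+ CD95+ GL7+ B cells sorted from spleen 7 days after sheep red blood cells were given, with 1 array of total RNA each. The labels do not name the allele, the strain, the age or the sex of the mice, nor whether mice were pooled, so the tests read only the spread among these 7 samples, which may be technical. Arrays carry no sequencing depth, and the number of samples, 7, is one limit on the precision.

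In this pathway a long-chain acyl-CoA synthetase first joins the fatty acid to coenzyme A. The carnitine shuttle then moves the acyl group across the inner mitochondrial membrane, and each round of the beta-oxidation spiral removes an acetyl-CoA by an oxidation, a hydration, another oxidation and a thiolysis. Electrons from the first step leave through the electron transfer flavoprotein. Peroxisomes run a parallel spiral that shortens very long and branched chains. Germinal centre B cells have been described as users of fatty acid oxidation.

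The arrays were checked before the pathway was read. Rras2 read 7.13, 7.41, 8.66 and 8.39 on WT arrays 1 to 4, against 6.93, 6.68 and 7.12 on deficient arrays 1 to 3, a difference of -0.99 ± 0.39 (log2, limma SE) with an adjusted p of 1.00. Every deficient array lay below every WT array, but which exons were removed is not labelled, and probes outside them would check nothing. The arrays fell into sets by the interquartile range of their log2 values, 2.37 to 2.49 in WT replicates 1 and 2 and RRas2-deficient replicate 2 (the narrower set, 3 arrays) and 2.69 to 2.91 in the other 4 (the wider set). WT replicate 3 also stood apart in sex-linked genes, with Xist at 6.61 against 9.43 to 10.29 on the others and the Y-linked Eif2s3y at 6.75 against 3.09 to 4.40. The median over the measured germinal centre markers (6 of 8 listed) was 8.23 to 9.81 in WT and 8.17 to 9.43 in deficient arrays. That over the tested myeloid markers (10 of 12) was 3.86 to 4.38 and 4.12 to 4.56, and that over the T cell markers (8 of 8) 3.76 to 4.82 and 3.89 to 4.00. The B cell markers, which check the sorted cell type, had medians of 10.45 to 11.20 and 10.29 to 10.95 (5 of 6), the plasma cell markers 6.13 to 6.93 and 5.64 to 6.54 (6 of 6), and the 1 erythroid marker measured, of 6 listed, read 4.66 to 5.12 and 4.65 to 4.98.

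None of the 31 fatty acid oxidation genes passed the comparison of genotypes. With limma and Benjamini-Hochberg adjustment over 16136 genes, 2 genes (0.0124%) had an adjusted p under 0.05, and no member did. At an unadjusted p under 0.05 the count was 132 genes (0.818%) and 0 members. Groups without overlap occurred in 175 genes (1.08%) and in no member. The members' means were lower in deficient cells in 20 of 31 cases, where 48.3% of all tested genes were lower, and their median difference was -0.04 against 0.00 over all tested genes, within a range of -0.43 to 0.23. The count hung on single arrays: it was 9 of 31 without WT replicate 3 (41.6% of all tested genes were lower), with a median of 0.07, and 5 of 31 without RRas2-deficient replicate 2 (45.7%), with a median of 0.10. In bulk RNA, fewer cells of a type and less RNA per cell cannot be told apart.

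**Figure D1:**
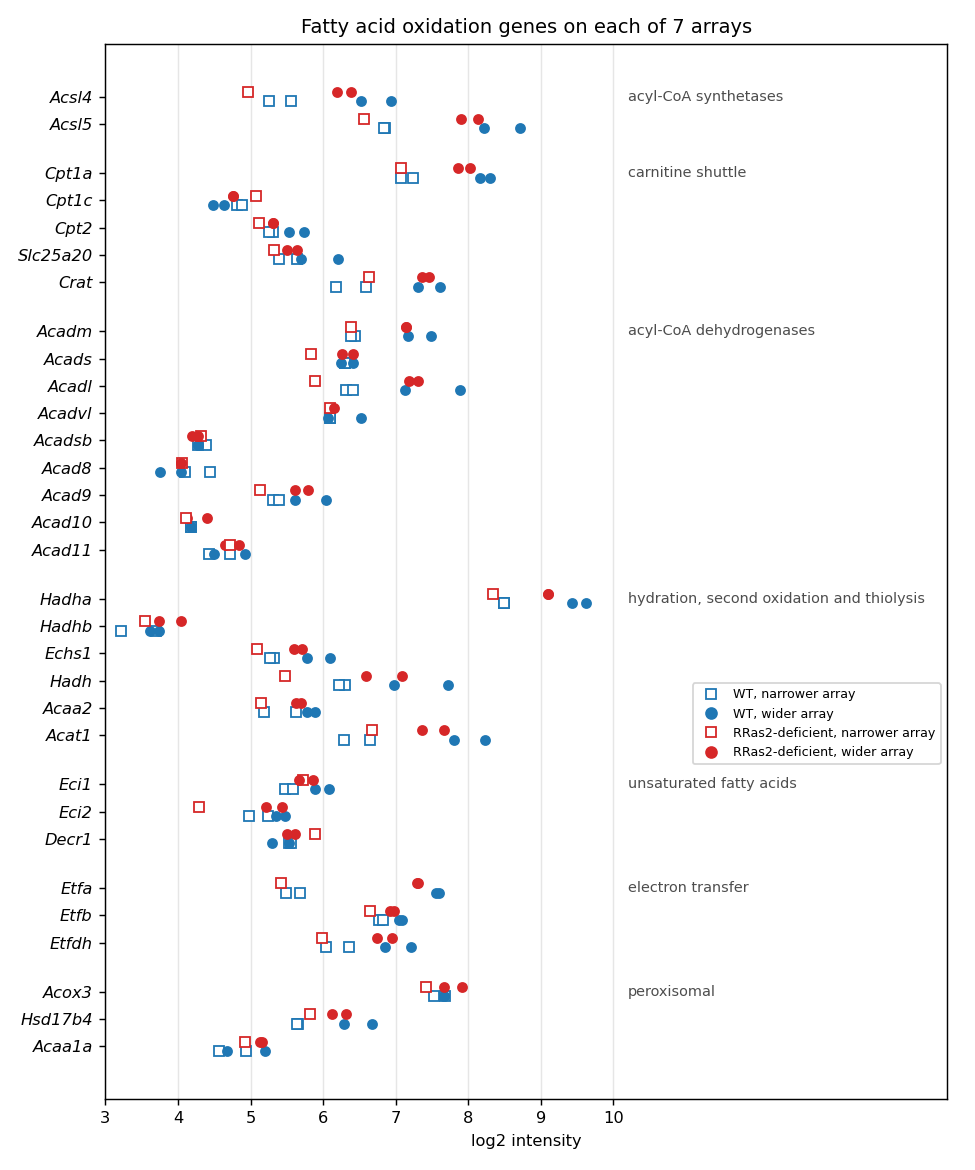
Log2 intensity (x axis) of the 31 fatty acid oxidation genes (y axis, grouped by step) on each array, WT in blue and RRas2-deficient in red, open squares for the 3 narrower and filled circles for the 4 wider arrays. Genes such as Etfa and Acsl5 part by array set and not by genotype, with 5.68 or less on each narrower and 7.29 or more on each wider array for Etfa.

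The acyl-CoA synthetases, which trap fatty acids in the cell as CoA esters, were represented by Acsl4 and Acsl5. Acsl5 read 6.86, 6.84, 8.71 and 8.22 on WT arrays 1 to 4, against 7.90, 6.56 and 8.14 on deficient arrays 1 to 3. Its genotypes overlapped widely, since WT replicates 1 and 2 and RRas2-deficient replicate 2 were low and the other 4 arrays high, and the difference of -0.12 ± 0.60 (95% interval -1.55 to 1.31) did not pass. Acsl4, which prefers polyunsaturated chains, differed by -0.22 ± 0.52 and showed the same split of arrays.

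In the carnitine shuttle 3 of 5 means were lower in deficient cells, and it held the member of lowest p. That was Cpt2, the inner-membrane transferase that rebuilds acyl-CoA in the matrix, which read 5.31, 5.26, 5.73 and 5.53 on WT arrays 1 to 4, against 5.31, 5.11 and 5.31 on deficient arrays 1 to 3. Its deficient arrays all lay within or below the lower end of WT, with means of 5.46 ± 0.21 (SD, n = 4) and 5.25 ± 0.12 (SD, n = 3), a difference of -0.21 ± 0.14 and an adjusted p of 1.00. The deposited value of Cpt2 was identical on 3 arrays, WT replicate 1 and RRas2-deficient replicates 1 and 3, so its SE rests on fewer distinct values. Slc25a20, the translocase that exchanges acylcarnitine for carnitine, read 5.39, 5.64, 6.20 and 5.69 on WT arrays 1 to 4, against 5.64, 5.32 and 5.51 on deficient arrays 1 to 3. It was highest in WT replicate 3 and overlapped elsewhere, with a difference of -0.24 ± 0.20. Both differences stayed below 0 within the narrower set (-0.18 and -0.19, with 1 deficient array) and within the wider set (-0.31 and -0.37).

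Cpt1a, the outer-membrane transferase that commits fatty acids to oxidation and is inhibited by malonyl-CoA, read 7.08, 7.24, 8.30 and 8.16 on WT arrays 1 to 4, against 7.86, 7.07 and 8.03 on deficient arrays 1 to 3. Its genotypes overlapped and its difference was -0.04 ± 0.39, with a 95% interval of -0.96 to 0.88 in the model without the array set and -0.43 to 0.02 with the array set as a block. Cpt1c, a relative found mainly in neurons and thought to carry little oxidation, read 4.82, 4.89, 4.49 and 4.63 on WT arrays 1 to 4, against 4.76, 5.07 and 4.76 on deficient arrays 1 to 3. It ran against Cpt1a, highest where Cpt1a was lowest, and differed by 0.16 ± 0.14 with overlapping groups. The value of Cpt1c was identical on deficient arrays 1 and 3. Crat, which forms short-chain acylcarnitines, differed by 0.23 ± 0.39.

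The acyl-CoA dehydrogenases, which take the first electrons from chains of different length, had 6 of 9 means lower in deficient cells and a median difference of -0.04. Acadm, the medium-chain enzyme, read 6.44, 6.38, 7.49 and 7.17 on WT arrays 1 to 4, against 7.15, 6.38 and 7.15 on deficient arrays 1 to 3, and Acads, the short-chain enzyme, 6.30, 6.30, 6.25 and 6.41 on WT arrays 1 to 4, against 6.41, 5.84 and 6.27 on deficient arrays 1 to 3. Acadm parted by array set and differed by 0.02 ± 0.34 between genotypes, whereas Acads was even across 6 arrays and lower in RRas2-deficient replicate 2, with a difference of -0.15 ± 0.14. The long-chain Acadl differed by -0.14 ± 0.50, the very-long-chain Acadvl by -0.08 ± 0.13, and Acad9, which also serves complex I assembly, by -0.08 ± 0.23. Acadsb and Acad8, of branched-chain amino acid breakdown, differed by -0.04 ± 0.08 and -0.03 ± 0.16, and the less studied Acad10 and Acad11 by 0.04 ± 0.10 and 0.09 ± 0.14. Acadvl, Acadsb and Acad10 each had an identical value on 4 arrays, as 10.4% of tested genes did, so their SE rests on fewer distinct values.

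The later steps of the spiral gave the largest difference among members and the brightest probe set, and 5 of their 6 means were lower in deficient cells. Hadha, the alpha subunit of the mitochondrial trifunctional protein, which hydrates and oxidises long chains, read 8.49, 8.49, 9.62 and 9.43 on WT arrays 1 to 4, against 9.11, 8.34 and 9.10 on deficient arrays 1 to 3, a difference of -0.16 ± 0.36. Its partner Hadhb, the thiolase subunit, read 3.22, 3.69, 3.61 and 3.74 on WT arrays 1 to 4, against 4.04, 3.54 and 3.74 on deficient arrays 1 to 3, a difference of 0.21 ± 0.17. Hadha was 8.34 to 8.49 on the narrower and 9.10 to 9.62 on the wider arrays, while Hadhb sat near the limit of 3.48 for dim genes in both genotypes, so its difference is uncertain in size.

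Hadh, the short-chain hydroxyacyl-CoA dehydrogenase, read 6.31, 6.22, 7.72 and 6.98 on WT arrays 1 to 4, against 7.09, 5.47 and 6.59 on deficient arrays 1 to 3 and is given because its difference was the largest of the members, a choice made after the values were seen. Its difference of -0.43 ± 0.50 was smaller than its SE, and RRas2-deficient replicate 2 was the lowest array and WT replicate 3 the highest. Echs1, the short-chain enoyl-CoA hydratase, differed by -0.15 ± 0.25, the thiolase Acaa2 by -0.13 ± 0.21, and Acat1, the acetoacetyl-CoA thiolase shared with ketone body metabolism, by -0.01 ± 0.52.

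Auxiliary enzymes let unsaturated chains enter the spiral, and 2 of 3 had lower means in deficient cells. Decr1, the mitochondrial 2,4-dienoyl-CoA reductase, read 5.53, 5.55, 5.53 and 5.29 on WT arrays 1 to 4, against 5.61, 5.88 and 5.50 on deficient arrays 1 to 3. It was highest in RRas2-deficient replicate 2 and lowest in WT replicate 4, the groups overlapped, and the difference was 0.19 ± 0.12. Eci1, a mitochondrial enoyl-CoA isomerase, read 5.48, 5.59, 6.08 and 5.89 on WT arrays 1 to 4, against 5.86, 5.73 and 5.67 on deficient arrays 1 to 3, a difference of -0.01 ± 0.16. Eci2, an isomerase found in mitochondria and peroxisomes, read 4.98, 5.25, 5.35 and 5.47 on WT arrays 1 to 4, against 5.21, 4.30 and 5.43 on deficient arrays 1 to 3. Its difference of -0.28 ± 0.28 rested on RRas2-deficient replicate 2, the lowest of the 7 arrays, and was 0.06 without it.

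The electron transfer flavoprotein takes electrons from the dehydrogenases, and Etfdh passes them to ubiquinone. Of Etfa, Etfb and Etfdh, 2 of 3 had lower means in deficient cells. Etfb, the flavoprotein's beta subunit, read 6.78, 6.82, 7.05 and 7.09 on WT arrays 1 to 4, against 6.93, 6.64 and 6.97 on deficient arrays 1 to 3, a difference of -0.09 ± 0.13. Etfa, its alpha subunit, read 5.68, 5.49, 7.60 and 7.55 on WT arrays 1 to 4, against 7.31, 5.42 and 7.29 on deficient arrays 1 to 3 and is given for its spread, seen in the data. The difference between genotypes was 0.09 ± 0.74, while its wider arrays exceeded its narrower ones by 2.00 in WT and 1.88 in deficient cells. Etfdh differed by -0.05 ± 0.34.

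All 3 members of the peroxisomal spiral had higher means in deficient cells, by 0.02 to 0.22, and none passed. Acox3, an oxidase of branched-chain substrates, read 7.53, 7.68, 7.66 and 7.67 on WT arrays 1 to 4, against 7.92, 7.42 and 7.66 on deficient arrays 1 to 3, a difference of 0.03 ± 0.13. Hsd17b4, the D-bifunctional protein that hydrates and oxidises the chain, read 5.66, 5.64, 6.67 and 6.28 on WT arrays 1 to 4, against 6.13, 5.81 and 6.31 on deficient arrays 1 to 3, a difference of 0.02 ± 0.28. Acaa1a, the peroxisomal thiolase, read 4.56, 4.94, 4.68 and 5.20 on WT arrays 1 to 4, against 5.12, 4.92 and 5.16 on deficient arrays 1 to 3, a difference of 0.22 ± 0.17. In each the genotypes overlapped, and only Acaa1a kept its sign within both array sets (0.17 and 0.20). Of the 28 members of the other steps, 20 were lower, with a median of -0.07 against 0.03 for the 3 peroxisomal members, and the difference between these groups of genes was not tested. Eci2, found in both compartments, was counted among the 28, so the split is by listed step and not strictly by compartment.

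**Figure D2:**
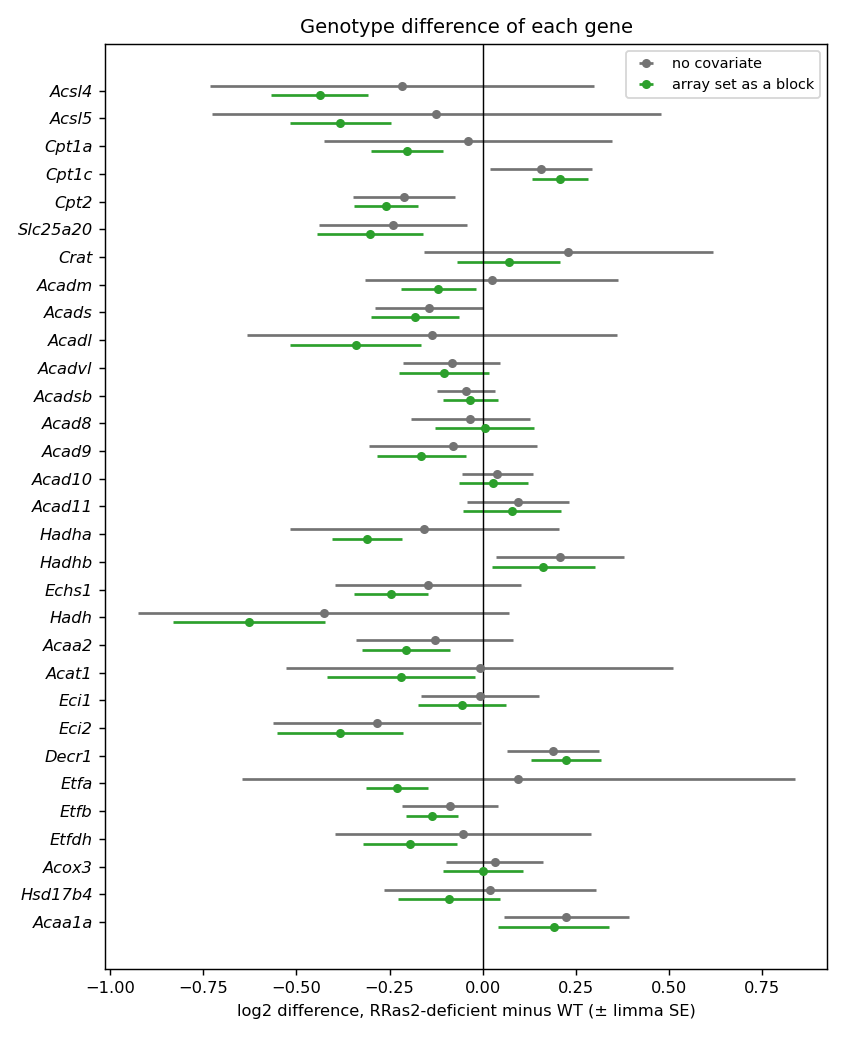
Log2 difference of each gene, RRas2-deficient minus WT (x axis, points with limma SE as bars), without a covariate in grey and with the array set as a block in green. Hadh has the largest size in both (-0.43 and -0.63), and none of the 31 passed an adjusted p of 0.05 in either.

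With the array set held as a block, the SEs of the members' differences became smaller and more of the differences lay below 0. The block was formed from the values of these same arrays, so its SEs and unadjusted p-values may be too small. In this limma model 22 of 31 members were lower in deficient cells (50.9% of all tested genes were), with a median of -0.16 against 0.00 over all tested genes. At an unadjusted p under 0.05 there were 8 members, 7 lower and 1 higher, where 10.1% of all tested genes reached that limit and 6.24% did so with a lower mean. After adjustment over 16136 genes 2 genes (0.0124%) passed and no member did, the lowest adjusted p of a member being 0.380. In this model the 8 members became 3 without RRas2-deficient replicate 1 or 2, and 5 without WT replicate 3 or RRas2-deficient replicate 3. They became 7 to 10 without WT replicate 1, 2 or 4. Without RRas2-deficient replicate 2 the narrower set held only WT arrays, so the genotype difference came from the wider arrays alone (2 WT and 2 deficient). Of all tested genes, 8.25% reached the same limit without RRas2-deficient replicate 1 and 6.95% without RRas2-deficient replicate 2. The share was 6.92% without WT replicate 3, 7.97% without RRas2-deficient replicate 3, and 8.43% to 13.01% without WT replicate 1, 2 or 4. The members' median became -0.07 without WT replicate 3. Cell type markers moved in the same model: 6 of 6 germinal centre markers were lower (median -0.16), as were 4 of 5 B cell (-0.16), 6 of 6 plasma cell (-0.29) and 7 of 8 T cell markers (-0.10), against 1 of 10 myeloid markers (0.15). Within the narrower arrays alone 8 of 8 T cell markers were lower (median -0.26), and within the wider arrays alone 4 of 8 (0.01). The part of the markers in the shift of the members was not tested. The 7 lower members were Acsl4 (-0.44 ± 0.13), Hadha (-0.31 ± 0.09), Hadh (-0.63 ± 0.20), Cpt2 (-0.26 ± 0.08), Acsl5 (-0.38 ± 0.14), Etfa (-0.23 ± 0.08) and Echs1 (-0.25 ± 0.10), and the higher one was Cpt1c (0.21 ± 0.08). Within the narrower arrays alone 21 members were lower (47.3% of all tested genes) and within the wider arrays alone 22 (53.0%), with 17 lower in both and 5 higher in both. The narrower set holds 1 deficient array. When each array's interquartile range entered as a number instead, 15 of 31 were lower (45.3% of all tested genes), the median was 0.00 and 1 member had an unadjusted p under 0.05 (Cpt2, -0.19), as 4.70% of all tested genes did, so the shift seen with the block was not seen with the covariate. With that covariate 1 of 6 germinal centre markers was lower (median 0.10), against 3 of 6 in the model without a covariate (-0.02). Lower with the covariate were also 3 of 5 B cell (-0.01) and 6 of 6 plasma cell markers (-0.19). So were 8 of 8 T cell (-0.18) and 1 of 10 myeloid markers (0.12).

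The larger pattern in these genes was the array set. Between the wider and the narrower arrays 26 of 31 members were higher in WT and in deficient cells alike, as were 39.6% of all tested genes, and 12 of 31 by more than 0.5 in both (16.2% of all tested genes). The median step was 0.43 in WT and 0.50 in deficient cells. Among the largest steps were those of Etfa, Acsl5 (1.61 and 1.46), Acat1 (1.55 and 0.84), Acsl4 (1.32 and 1.31) and Acadl (1.14 and 1.36). Cpt1c and Decr1 ran the other way, at -0.29 and -0.31 for Cpt1c and -0.13 and -0.33 for Decr1, as did Acadsb and Acad8 by -0.37 to -0.02. The sets were formed from the spread of all values of these arrays, so the steps are a description and carry no test. By that construction bright genes tend to rise and dim genes to fall on the wider arrays. The members' median was 5.47 to 6.25 over the 7 arrays, against 5.23 to 5.28 for all tested genes. What part brightness has in these counts was not tested.

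**Figure D3:**
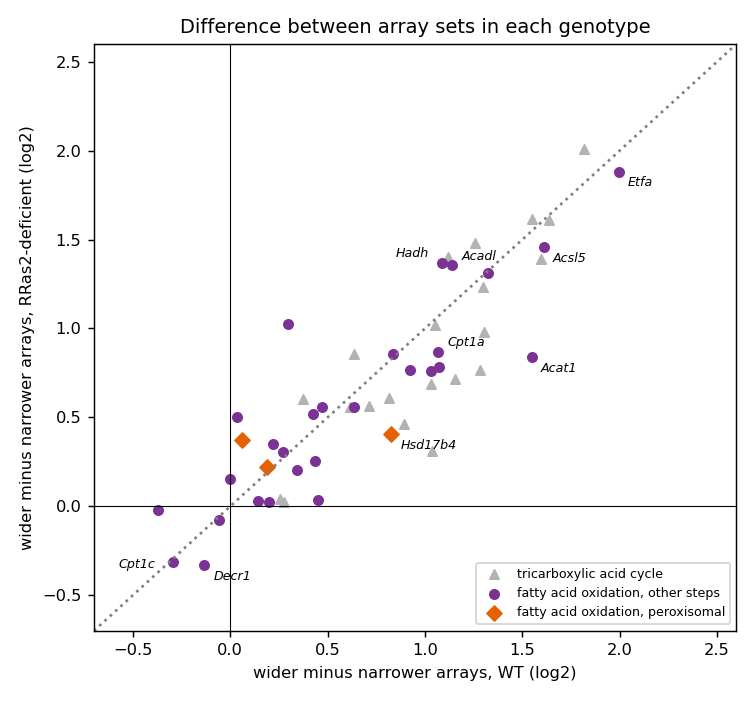
Mean log2 intensity of the wider minus the narrower arrays in WT (x axis) and in RRas2-deficient samples (y axis), 1 point for each gene, with the line of equality dotted. Most fatty acid oxidation genes lie above 0 on both axes, with Etfa farthest out at 2.00 and 1.88, and tricarboxylic acid cycle genes lie in the same direction.

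A step in the same direction was seen in the tricarboxylic acid cycle. Over 21 genes of this cycle, which burns the acetyl-CoA, the median step between array sets was 1.05 in WT and 0.77 in deficient cells, and the median genotype difference -0.12 (14 of 21 lower), or -0.29 with the block (20 of 21). With the interquartile range as a covariate the median genotype difference was -0.04 (11 of 21 lower). Of all tested genes 48.3%, 50.9% and 45.3% were lower in these models, in that order. The genes of lowest p were Dlst (-0.17 ± 0.12), Idh3a (-0.69 ± 0.63), Sucla2 (-0.25 ± 0.27) and Pdhb (-0.23 ± 0.28), and none passed. Over 11 tested genes of peroxisome biogenesis the steps were 0.31 and 0.14 and the genotype difference 0.06 (5 of 11 lower), with Pex16 (0.11 ± 0.10), Pex6 (0.09 ± 0.10), Pex2 (0.14 ± 0.17) and Pex7 (-0.28 ± 0.35) of lowest p. No test compared these lists with the fatty acid oxidation genes. The lists also differ in brightness, with medians over the arrays of 6.63 to 7.84 for the cycle and 5.38 to 5.83 for peroxisome biogenesis. What part brightness has in their steps was not tested.

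Markers of cell type moved with the array sets as well. The median over the germinal centre markers was 8.17 to 8.43 on the narrower and 9.25 to 9.81 on the wider arrays, with Rgs13, picked after its values were seen, at 5.86 to 6.44 and 8.59 to 9.59. That over the B cell markers was 10.29 to 10.65 and 10.92 to 11.20. In both genotypes 6 of 6 germinal centre and 5 of 5 B cell markers were higher on the wider arrays, as were 39.6% of all tested genes. The T cell markers were at 4.00 to 4.82 and 3.76 to 3.93, and 0 of 8 were higher on the wider arrays in both genotypes. Their median of 4.82 was that of WT replicate 1 alone, against 3.76 to 4.11 on the other arrays. The myeloid markers were at 4.32 to 4.53 and 3.86 to 4.56, and 0 of 10 were higher on the wider arrays in both. The plasma cell markers had no common direction: 2 of 6 were higher on the wider arrays in both genotypes, Jchain by 1.38 and 2.22 and Xbp1 by 1.20 and 0.76, and the list's median was 6.33 to 6.93 and 5.64 to 6.33 where its mean was 6.26 to 6.58 and 6.41 to 6.79. The part of cell content in the level of the fatty acid oxidation genes was not tested.

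**Figure D4:**
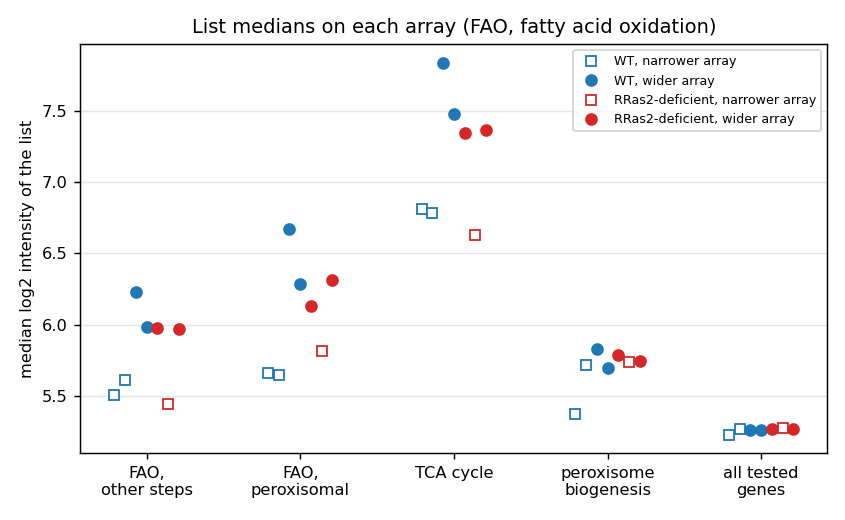
Median log2 intensity (y axis) of each gene list (x axis; FAO, fatty acid oxidation; TCA, tricarboxylic acid) on each array, symbols by genotype and array set. The 28 genes of the activation, shuttle and mitochondrial steps read 5.44 to 5.61 on the narrower and 5.97 to 6.23 on the wider arrays. All tested genes, which were dimmer in the median, read 5.23 to 5.28, and what part brightness has in the step was not tested.

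Promoter sequence was set beside these patterns, from RefSeq windows of 300 bases (250 before to 50 after the start, mouse build GRCm38.p6), which held 27 of the 33 genes. The letters searched on both strands were GGGCGG (the GC box of the SP family), CCAAT, TCAAGGTCA (the site of the estrogen-related receptors), AGGTCA repeated after any 1 base (the element read by PPAR with RXR) and GCGCA followed by its reverse complement (the site of nuclear respiratory factor 1). GGGCGG was in 22 of the 27 genes' windows and in 35.7% of all 32851 windows, CCAAT in 13 and 37.4%, and the nuclear respiratory factor 1 site in 2 (Acad10 and Etfdh) and 0.971%. A gene counted if any window of its symbol matched, while the percentages are of single windows, so the units are unlike. Hadha and Hadhb, whose windows overlap, counted separately, and no test compared the shares. TCAAGGTCA (0.423% of all windows) and the repeat of AGGTCA (0.0396%) were in none of the 27, which says only that these exact letters are not in these windows. The 250 bases before the start are shown for Cpt2 and Slc25a20, the shuttle genes of lowest p with a lower mean in deficient cells, for Etfa, the member with the largest step between array sets, and for Hadhb, which shares its upstream sequence with Hadha, with matches to any of these motifs in capitals.
Cpt2 (chr4:107923590-107923839, minus strand): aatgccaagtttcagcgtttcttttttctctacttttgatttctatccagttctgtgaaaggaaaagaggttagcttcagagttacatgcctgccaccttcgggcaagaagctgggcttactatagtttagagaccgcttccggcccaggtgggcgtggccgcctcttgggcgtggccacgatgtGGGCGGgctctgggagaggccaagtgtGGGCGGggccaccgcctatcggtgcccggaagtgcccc
Slc25a20 (chr9:108661886-108662135, plus strand): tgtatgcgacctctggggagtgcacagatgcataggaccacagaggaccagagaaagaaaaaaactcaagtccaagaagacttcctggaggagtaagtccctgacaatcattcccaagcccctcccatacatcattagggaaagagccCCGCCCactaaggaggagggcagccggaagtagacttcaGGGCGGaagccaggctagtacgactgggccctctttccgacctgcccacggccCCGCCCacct
Etfa (chr9:55512244-55512493, minus strand): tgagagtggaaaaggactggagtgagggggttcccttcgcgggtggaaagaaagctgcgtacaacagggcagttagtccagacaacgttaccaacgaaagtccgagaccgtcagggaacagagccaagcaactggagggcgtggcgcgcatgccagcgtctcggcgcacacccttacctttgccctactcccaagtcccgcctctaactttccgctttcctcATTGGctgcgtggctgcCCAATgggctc
Hadhb (chr5:30155003-30155252, plus strand): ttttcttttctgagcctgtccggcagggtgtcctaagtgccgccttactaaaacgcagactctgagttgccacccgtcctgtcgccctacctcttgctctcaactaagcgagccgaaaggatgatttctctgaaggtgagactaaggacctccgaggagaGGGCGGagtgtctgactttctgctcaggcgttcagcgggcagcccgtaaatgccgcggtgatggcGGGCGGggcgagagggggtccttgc
The 250 bases of Cpt2 and Slc25a20 held 2 and 3 matches to GGGCGG, those of Etfa 0 to GGGCGG and 2 to CCAAT, and those of Hadhb 2 to GGGCGG. The starts of Hadha and Hadhb lie 273 bases apart on opposite strands, so the 250 bases printed for Hadhb lie between them and upstream of both subunit genes. Their probe sets differed in their step between array sets (1.03 and 0.22 in WT).

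Genes that supply, control or extend the pathway were also without a call. Of 47 listed genes 37 were tested, 25 lower and 12 higher in deficient cells (48.3% of all tested genes were lower), and 0 passed in either direction. At an unadjusted limma p under 0.05 there was 1 gene, a limit that 0.818% of all tested genes reached. That gene was Slc22a5, the plasma membrane carnitine importer, which read 5.38, 5.13, 4.77 and 5.22 on WT arrays 1 to 4, against 4.44, 4.85 and 4.74 on deficient arrays 1 to 3. Its groups overlapped only through WT replicate 3, and the difference was -0.45 ± 0.17 (limma, adjusted p = 1.00) and -0.40 ± 0.14 with the array set as a block (adjusted p = 0.422). Among the other genes of entry and malonyl-CoA control the fatty acid transporters Slc27a4 and Slc27a1 differed by -0.17 ± 0.12 and -0.22 ± 0.24, and the malonyl-CoA decarboxylase gene Mlycd by 0.22 ± 0.20.

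In the further peroxisomal list 9 of 11 tested genes were lower, while the 3 peroxisomal members were higher (a difference not tested), with Amacr (-0.14 ± 0.11), Acox2 (0.10 ± 0.09), Ehhadh (-0.19 ± 0.23) and Decr2 (-0.21 ± 0.31) of lowest p. Crot, the peroxisomal carnitine transferase, had the largest blocked difference relative to its error there, -0.40 ± 0.10 (adjusted p = 0.337), and was chosen after its value was seen. Of the regulators 3 of 7 were lower, with the AMPK subunit gene Prkaa2 (0.13 ± 0.09) and the nuclear receptor genes Rxra (0.11 ± 0.11), Ppara (0.10 ± 0.11) and Ppard (-0.06 ± 0.12) of lowest p, while Pparg and Ppargc1a were too dim to be tested. Esrra read 6.65 to 7.21 in WT and 6.76 to 7.09 in deficient cells, higher on every narrower than on every wider array, and is named for that order, seen in the data. Among auxiliary mitochondrial enzymes 8 of 10 were lower, with the propionyl-CoA carboxylase gene Pcca (-0.15 ± 0.08), Ivd (-0.18 ± 0.11), Acot2 (-0.15 ± 0.16) and Gcdh (-0.11 ± 0.12) of lowest p. Pcca was the only 1 of the 37 whose groups did not overlap, as was so for 1.08% of all tested genes. It read 6.46 to 6.57 in WT and 6.29 to 6.45 in deficient cells.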

How the data were processed

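RNA from splenic B cells sorted for germinal centre markers was labelled with biotin, per the labels' protocols, and 1 array was read for each sample. For 25349 probe sets the authors deposited log2 intensities. The submitters' processing notes name RMA and the package oligo, without versions. In 7786 of the 16136 tested genes (48.3%), 12 of the 31 members among them, at least 2 arrays held the identical deposited value. Sequencing depth does not apply to arrays, whose number is one limit on the precision.

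Genes were named from the platform annotation (22225 probe sets with 1 symbol, 616 with several, 2508 with none), and for all 31 members the gene ID and symbol matched a RefSeq table. Of several probe sets the brightest in the mean was kept. Genes dimmest in the mean (5379 of 21515, below the 25th percentile) were left out. RRas2-deficient arrays were compared with WT by limma 3.58.1 (R 4.3.3) in a two-sided test with no covariate, through lmFit and eBayes, and p-values were adjusted by Benjamini-Hochberg over 16136 genes, with 0.05 as threshold. The error beside a difference is limma's moderated SE.

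The members and lists were chosen with earlier results of these data known. Values on every array are given for the 8 members of lowest p, the brightest of each step and the peroxisomal members, and up to 4 genes of lowest p are named from each other list. The array sets lie on either side of the widest gap between interquartile ranges (0.197 wide, centred on 2.59). Alternatives were other filters, the mean over probe sets, quantile normalization, centring, an intensity trend, the replicate number as a block, the array set as a block or each set alone, the interquartile range as a covariate and leaving out each array. Leaving out each array with the set as a block was added after seeing the data.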

Additional observations from a re-analysis of the deposited data

Results flagged for a closer look

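In 4 of the 31 members 1 of the 4 WT arrays stood far from the other 3 by Dixon's ratio of gap to range at the 95% critical value. Chance gives such a gap in about 1 of 20 groups of values without ties. Only the 31 members were examined, so no share over all tested genes stands beside this count. Acadvl held an identical value on WT replicates 1 and 2, and Decr1 on WT replicates 1 and 3. Acadvl was 6.52 in WT replicate 3 against 6.07 to 6.10 (ratio 0.945). Acadsb was 4.39 in WT replicate 1, where the others shared the value 4.28, so its ratio is 1.00 whatever the size of the gap. Decr1 was 5.29 in WT replicate 4 against 5.53 to 5.55 (ratio 0.90), and without that array its genotype difference was 0.13. Acox3 was 7.53 in WT replicate 1 against 7.66 to 7.68 (ratio 0.895). The whole ranges of Acadsb and Acox3 over the WT arrays were 0.11 and 0.15. The groups of 3 deficient arrays were not examined in this way.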

How the results depend on the processing

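No member passed the adjusted threshold under any alternative, the lowest adjusted p being 0.380, or 0.225 in the model blocked by array set when WT replicate 4 was left out. The count of members with lower means was 15 to 22 of 31 over the alternatives that kept 31 members and left out no single array, and 18 of 27 with the filter at the median of genes. It was 5 to 24 with each array left out, lowest without RRas2-deficient replicate 2, and 20 to 25 when the array set was also a block. The median turned positive when WT replicate 3 (0.07), the fourth WT array (0.03) or the second deficient one (0.10) was left out. Over all genes 2 passed, against 1 with arrays centred and 0 with the replicate block (176 at an unadjusted limma p under 0.05), the wider arrays alone (1311) or the narrower ones (1351), and 0 to 2 with each array left out. The replicate block and each set alone use fewer arrays; the cause of the change with centring was not tested. The same-numbered arrays deviated from their group means with correlations of -0.59, 0.78 and 0.66 over tested genes. Such correlations followed the array set, at 0.59 to 0.78 between WT and deficient arrays of the same set and -0.81 to -0.59 otherwise. They therefore cannot decide whether the numbers pair the samples. The replicate block, which sets WT replicate 4 aside, left 15 of 31 members lower (median 0.03).

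Of the members, 8 kept their sign under each alternative apart from leaving out an array with the array set as a block, which was not computed for single members: Cpt2, Slc25a20, Acadsb, Cpt1c, Acad11, Hadhb, Decr1 and Acaa1a. The others changed sign at least once, none with a call on either side, and the cause was not tested. With the array set as a block these were Acad8 0.0049, Acadm -0.12, Etfa -0.23 and Hsd17b4 -0.090. With arrays centred these were Hsd17b4 -0.0028. With a further quantile normalization these were Acat1 0.043 and Eci1 0.036. With the interquartile range as a covariate these were Acat1 0.10, Acsl5 0.0028, Cpt1a 0.042, Eci1 0.020 and Etfdh 0.013. On the narrower arrays alone these were Acad10 -0.063, Acadm -0.027, Acat1 0.21, Acox3 -0.19, Eci1 0.19 and Etfa -0.16. With the replicate block these were Acat1 0.18, Acsl5 0.062, Cpt1a 0.12, Eci1 0.036 and Etfdh 0.028. On the wider arrays alone these were Acad8 0.15, Acadm -0.18, Acads 0.0062, Crat -0.047, Etfa -0.28 and Hsd17b4 -0.26. With each array left out in turn the ranges were Acaa2 -0.27 to 0.043, Acad10 -0.055 to 0.089, Acad8 -0.14 to 0.086, Acad9 -0.22 to 0.11, Acadl -0.39 to 0.32, Acadm -0.14 to 0.28, Acads -0.26 to 0.022, Acadvl -0.12 to 0.026, Acat1 -0.33 to 0.32, Acox3 -0.095 to 0.16, Acsl4 -0.49 to 0.22. For the rest they were Acsl5 -0.43 to 0.36, Cpt1a -0.24 to 0.25, Crat -0.018 to 0.49, Echs1 -0.27 to 0.040, Eci1 -0.10 to 0.098, Eci2 -0.51 to 0.057, Etfa -0.27 to 0.72, Etfb -0.15 to 0.013, Etfdh -0.25 to 0.23, Hadh -0.78 to 0.030, Hadha -0.33 to 0.097, Hsd17b4 -0.12 to 0.22.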
